A study of Mus musculus with 3 samples.

Results

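Interferon-induced genes, interferon regulatory factors (IRFs) and signal transducers and activators of transcription (STATs) were examined in the utero-tubular junction of the mouse, the narrow passage between uterus and oviduct. The genes were chosen by name alone, over all non-control probes. The names taken began, in the array files, with Oas, Ifit, Ifi, Irf, Gbp, Isg or Stat and then a digit. Other names taken began with Oasl, Ifitm, Irgm, Igtp, Iigp or Tgtp, or were Mx1, Mx2, Usp18, Rsad2, Ddx58, Dhx58, Zbp1 or Ifih1. This gave 109 of 41174 probes, which stand for 67 of 27962 gene names. Of these genes, 39 had 1 probe and 28 had several, with 5 at most. The names are those of the array's design, and 7 are given here by their current symbols: Gbp1 in the files is Gbp2b, Gbp4 is Gbp3, Ifi27 is Ifi27l2a, Irgm is Irgm1, Iigp2 is Irgm2, Isg20l1 is Aen and Tgtp is Tgtp1. The name pattern also took 4 genes of another kind, namely Irf2bp1 and Irf2bp2, which encode proteins that bind IRF2, and Aen and Isg20l2, which encode exonucleases related to ISG20.

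The females were adult CD-1 mice, an outbred stock, and all were in estrus. The 3 groups were females mated with normal males, females mated with vasectomized males, whose ejaculate carries seminal fluid but no sperm, and females that had not mated. RNA of 10 females per group was pooled and hybridised to 1 single-colour array. The design sets each mating against no mating and the matings against each other, and the sources used here do not state how long after mating the tissue was taken. With 1 array of 1 pool per group, no difference below has a replicate check, and no test between animals is possible.

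Interferons are secreted proteins that cells release when they sense foreign nucleic acids or other microbial products. Type I interferons bind IFNAR1 with IFNAR2, and interferon gamma binds IFNGR1 with IFNGR2. The receptors' Janus kinases phosphorylate STAT proteins. Complexes of STATs with IRF9 bind the interferon-stimulated response element (ISRE), while pairs of STATs bind the gamma-activated site (GAS). The genes switched on include antiviral enzymes such as the oligoadenylate synthetases, the GTPases of the Mx, GBP and IRG families, and the IRFs and STATs themselves. In the female tract, interferon epsilon is made by the epithelium without infection and is under hormonal control.

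Values are log2 levels, the log2 signal of a probe minus the 75th percentile of its array, so that 0 is the level at that percentile. A gene stands for its brightest probe, and the levels of different genes are not compared because probes differ in brightness for equal RNA. "Higher" and "lower" mean at least 2-fold (1 on the log2 scale), and "within 2-fold" means less in either direction. "Well above background" is the flag that the image software set for each spot. The 75th percentile was at a signal of 708 on the normal mated, 295 on the vasectomized mated and 874 on the not mated array. Replicate spots of a probe had a median SD of 0.0543 to 0.0644 on the log2 scale, which covers hybridisation within an array and neither animals nor pools. Oviduct and epithelial markers were well above background on all 3 arrays, with Ovgp1, the oviductal glycoprotein, at 8.33 on the normal mated, 8.51 on the vasectomized mated and 8.07 on the not mated array. The other oviduct markers differed between the arrays: Foxj1, of ciliated cells, had log2 ratios to the not mated array of 1.87 after normal and 1.26 after vasectomized mating, and Pax8, of secretory cells, of -0.92 after normal and -3.76 after vasectomized mating.

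Most interferon-induced genes were at higher levels after mating with normal males, while the IRFs, the STATs and the Ifitm genes were divided or little different. Well above background were 65 of the 67 genes in normal mated, 64 in vasectomized mated and 63 in not mated females. In normal mated against not mated females 64 could be compared, of which 38 were higher, 4 were lower and 22 lay within 2-fold, while Irf4, Oas1g and Oas1h were too dim to compare. Among all 19475 genes compared, 9.77% were higher and 13.2% lower. The median log2 ratio was 1.45 over the members and -0.05 over all genes. In pooled tissue RNA, a different number of cells of a type and a different amount of RNA per cell cannot be told apart.

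After mating with vasectomized males, 32 of 64 members were higher than without mating, 3 were lower and 29 lay within 2-fold. On this array a larger share of all genes differed: 25.7% of 19480 were higher and 16.6% lower. The members' median log2 ratio was 1.07, against 0.18 for all genes. This array was the dimmest. Probes of a gene that were well above background on both arrays gave ratios over 2-fold apart for 56.5% of 23 members. Over all genes with several such probes the share was 51.6%. Against the not mated array, the normal mated array had 17.4% of members and 11.6% of all genes so apart. The part of this disagreement in the single ratios was not tested. Both comparisons use the same not mated array, and their values are therefore given side by side.

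Between the matings, 20 of 64 members were higher after normal mating, 11 were lower and 33 lay within 2-fold. Over all 19148 genes compared, 14.7% were higher and 27.9% lower after normal mating, with a median of -0.27, while the members' median was 0.19. How all genes were scaled moved these values. With the alternative scalings (normexp background correction, quantile and cyclic loess normalization) the median of all genes ran from 0.06 to 0.49 for vasectomized mated against not mated and from -0.50 to -0.08 for normal against vasectomized mated. Relative to the median of all genes, the members' median was higher by 1.19 to 1.50 for normal mated against not mated, by 0.58 to 0.94 for vasectomized mated against not mated and by 0.36 to 0.56 for normal against vasectomized mated, over the 4 scalings. The higher genes' share of all genes past 2-fold ran from 42.5% to 59.4%, from 54.9% to 77.2% and from 24.7% to 43.1% in the same 3 comparisons.

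**Figure D1:**
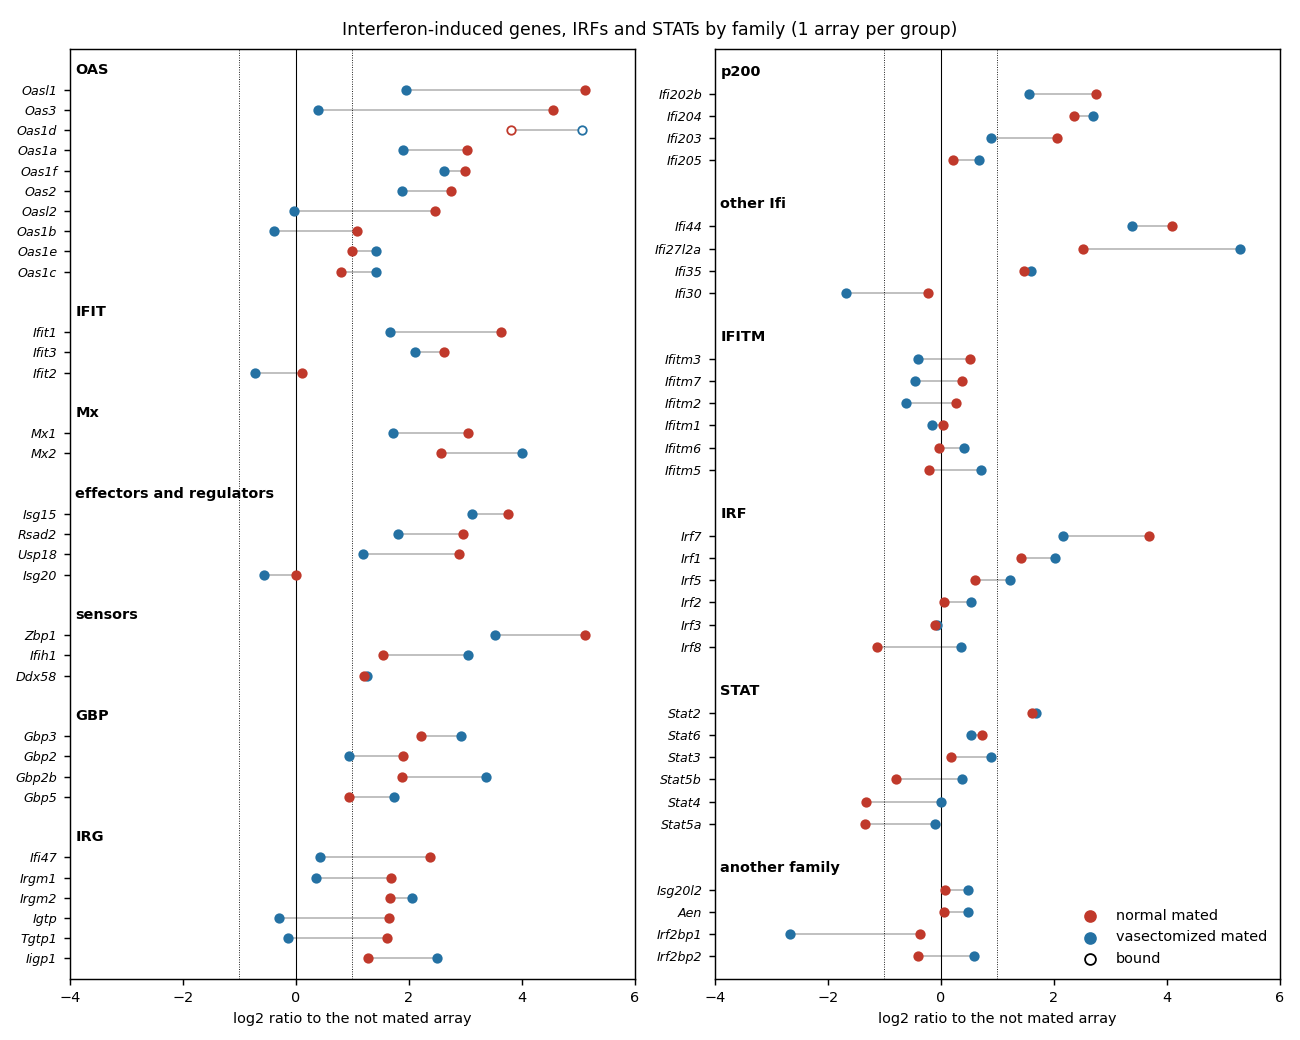
Log2 ratio to the not mated array (horizontal axis) of members compared, by family, for normal mated (red) and vasectomized mated (blue) females, 1 array per group. Dotted lines mark 2-fold and open circles mark lower bounds. The OAS, Mx, GBP, IRG and sensor genes lie to the right of 0 in red, while the 6 Ifitm genes lie between -0.61 and 0.71 in both colours, although Ifitm2, Ifitm3 and Ifitm7 passed 2-fold lower after vasectomized mating with quantile and cyclic loess normalization.

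The signal itself was examined in its order, from ligands to targets. Of 15 interferon genes on the array, 7 were well above background in normal mated, 8 in vasectomized mated and 6 in not mated females. Ifne, which encodes interferon epsilon, had a log2 level of 1.77 in normal mated, 1.82 in vasectomized mated and 0.61 in not mated females. It was thus 2.25-fold higher after normal mating and 2.31-fold higher after vasectomized mating than without mating. Ifnb1, which encodes interferon beta, was at -6.29 in normal mated and -2.23 in vasectomized mated females and was not well above background in females that had not mated. After mating with vasectomized males it was at least 14.0-fold higher than without mating, and it was 16.7-fold lower after normal than after vasectomized mating. Ifng, which encodes interferon gamma, was 2.36-fold lower after normal mating (-5.98, against -4.74 without mating) and within 2-fold after vasectomized mating (-4.02). Ifng and Ifnb1 were both dim on the normal mated array, as was Stat4 below. The ratio of Stat4 to the not mated array went from -1.33 to -0.16 with normexp background correction. No value of Ifng or Ifnb1 with that correction is given here.

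Among 10 genes of the receptors and Janus kinases, 2 were higher and 1 lower after normal mating, and 4 were higher and 2 lower after vasectomized mating. Over all genes, 9.77% were higher and 13.2% lower after normal mating, and 25.7% higher and 16.6% lower after vasectomized mating. Ifngr2, the signalling chain of the interferon gamma receptor, was at 4.84 in normal mated, 7.60 in vasectomized mated and 2.79 in not mated females. Its level was thus 4.15-fold higher after normal mating and 28.0-fold higher after vasectomized mating than without mating. Ifnar1 and Ifnar2, the type I receptor chains, lay within 2-fold in both matings, with log2 ratios of 0.20 after normal and -0.24 after vasectomized mating for Ifnar1, and of 0.88 after normal and 0.95 after vasectomized mating for Ifnar2. Jak2, a kinase of the interferon gamma receptor, was lower after both, with ratios of -1.18 after normal and -2.28 after vasectomized mating. Tyk2, a kinase of the type I receptor, had a log2 ratio of -0.08 after normal mating and was 3.01-fold lower after vasectomized mating.

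Of 15 feedback inhibitors of this signalling, 1 was higher and 0 were lower after normal mating, while 4 were higher and 4 lower after vasectomized mating. Socs3, which blocks Janus kinases, was the gene higher after normal mating, by 2.96-fold, and it was 6.74-fold higher after vasectomized mating. Socs1, which binds the interferon receptors' kinases, had a log2 ratio of 0.38 after normal and 2.22 after vasectomized mating, both against no mating. Of 14 compared genes of microbial sensing and its signalling upstream of the interferons, 3 were higher and 0 lower after normal mating, namely Sting1 (2.14), Ikbke (1.13) and Tlr3 (1.09). After vasectomized mating 5 of the 14 were higher and 4 lower. The shares over all genes were 9.77% higher and 13.2% lower after normal mating, and 25.7% higher and 16.6% lower after vasectomized mating. The 4 of 15 feedback inhibitors higher after vasectomized mating lie near that share.

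**Figure D2:**
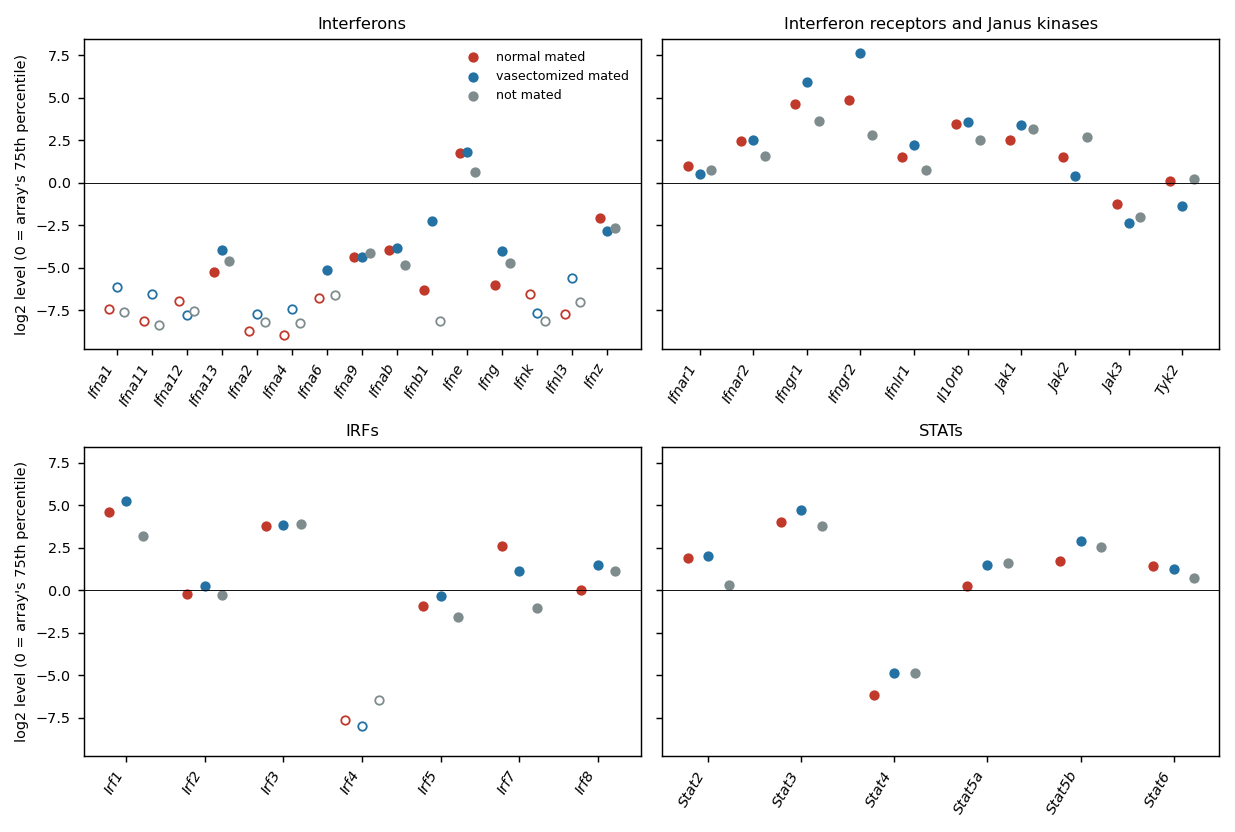
Log2 level (0 is the 75th percentile of the array) of interferon genes, receptor and Janus kinase genes, IRFs and STATs on the normal mated (red), vasectomized mated (blue) and not mated (grey) array. Open circles are probes not well above background, which include most of the interferon alpha genes and Irf4 on all 3 arrays.

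The IRFs are transcription factors that bind the ISRE and related elements. Irf7, which amplifies the type I response and is itself induced by interferon, had a log2 level of 2.61 in normal mated, 1.10 in vasectomized mated and -1.07 in not mated females. It was 12.8-fold higher after normal mating and 4.49-fold higher after vasectomized mating than without mating. Irf1, an activator of interferon-induced genes, was at 4.61 in normal mated, 5.22 in vasectomized mated and 3.19 in not mated females, with log2 ratios to the not mated array of 1.42 after normal and 2.03 after vasectomized mating. Its second probe, 3.27 kb away, gave 1.24 after normal mating and -1.56 after vasectomized mating, so the direction after vasectomized mating depends on the probe. Irf5, which acts downstream of toll-like receptors, was at -0.95 in normal mated, -0.33 in vasectomized mated and -1.55 in not mated females and was 2.33-fold higher after vasectomized mating, while its ratio after normal mating was 0.60.

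Irf8, which directs the myeloid and dendritic cell lineages, was at a lower level after normal mating. Irf8 was at 0.01 in normal mated, 1.50 in vasectomized mated and 1.13 in not mated females and was 2.17-fold lower after normal mating, with its other probe at -1.14. After vasectomized mating the 2 probes of Irf8 gave 0.36 and -1.0. Irf3, the factor that acts at the start of the type I response and is controlled mainly by phosphorylation, was at 3.76 in normal mated, 3.81 in vasectomized mated and 3.86 in not mated females, within 2-fold in both matings. Irf2, a repressor related to Irf1, was at -0.22 in normal mated, 0.27 in vasectomized mated and -0.27 in not mated females, also within 2-fold. Irf4, a factor of lymphocytes, was not well above background on any array.

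The STATs carry signals of interferons and other cytokines to the nucleus. Stat2, which acts with IRF9 in the type I response, was at 1.92 in normal mated, 2.00 in vasectomized mated and 0.31 in not mated females. It was 3.05-fold higher after normal mating and 3.22-fold higher after vasectomized mating than without mating.

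Lower after normal mating were Stat4, which transmits interleukin 12 signals in T and NK cells, and Stat5a, which transmits prolactin and cytokine signals. Stat5a was at 0.26 in normal mated, 1.50 in vasectomized mated and 1.60 in not mated females and was 2.54-fold lower after normal mating. Stat4 was at -6.18 in normal mated, -4.85 in vasectomized mated and -4.86 in not mated females, 2.51-fold lower after normal mating, but this dim gene had a log2 ratio of only -0.16 with normexp background correction. Of the T and NK cell markers, 8 of 10 compared were lower after normal mating (median -2.31) and 3 of 11 after vasectomized mating (median -0.15). Several of these markers were dim too. Cd8a, Eomes and Ncr1 were not well above background on the normal mated array, so their ratios after normal mating are bounds. No value of the markers with normexp background correction is given here. The part of T and NK cells in the levels of Stat4 and Ifng was not tested. Over all genes, 13.2% were lower after normal and 16.6% after vasectomized mating. Stat3, Stat5b and Stat6 lay within 2-fold in both matings by their brightest probes. Stat3, which transmits interleukin 6 signals, was at 3.99 in normal mated, 4.69 in vasectomized mated and 3.80 in not mated females. Stat5b, a close copy of Stat5a, was at 1.70 in normal mated, 2.89 in vasectomized mated and 2.51 in not mated females. The 3 probes of Stat5b gave log2 ratios of -1.84 to 0.14 after normal mating and -1.0 to 0.38 after vasectomized mating. Stat6, which transmits interleukin 4 signals, was at 1.42 in normal mated, 1.24 in vasectomized mated and 0.70 in not mated females.

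The promoters of the members were searched for the letters of the 2 elements named above, because many targets were higher together. Promoter windows of 300 bases (250 before and 50 after the transcript start, RefSeq, mouse build GRCm38.p6) were matched for 54 of the 67 genes by symbol. The core of the ISRE was written as GAAA, any 2 bases and GAAA, which reads TTTC, any 2 bases and TTTC on the other strand. Matches that overlap were counted separately. It occurred in 25 of 54 members (46.3%) and in 1079 of 27025 genes with a window (3.99%). It was in 17 of 26 members higher after normal mating (65.4%), 6 of 22 within 2-fold (27.3%) and 1 of 3 lower. The 22 include the 4 genes of another kind, of which 0 held a match. By family the ISRE core was in all 4 GBP windows, 4 of 5 IRG, 4 of 8 OAS, 2 of 6 Ifitm and 1 of 7 IRF windows. It was in 2 of 3 Ifit, 2 of 3 p200, 2 of 3 effector and regulator, 2 of 2 sensor and 2 of 6 STAT windows. It was in 0 of 3 windows of other Ifi genes. The windows of Oasl1, Ifi44 and Irf7 held no match, with log2 ratios of 5.12, 4.10 and 3.68 after normal mating. The sequences printed below were taken from windows with a match. The GAS core, TTCNNNGAA on either strand, occurred in 15 of 54 members (27.8%) and 9.55% of all genes, and in 7 of 26 members higher after normal mating (26.9%) and 7 of 22 within 2-fold (31.8%). A match is a description of these letters and not a binding site, and a window without one says nothing of elements elsewhere.

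The 200 bases before the transcript start are printed for 5 members of 5 families that were higher after normal mating and for Ifitm2, which was within 2-fold, to show where the ISRE letters lie. Each is given 5′ to 3′ on the strand of its gene from RefSeq (GRCm38.p6), ending at the base before the start, with the ISRE core in capitals. Isg15 lies on the minus strand (chr4:156200819-156201018), Oas1a on the minus strand (chr5:120907526-120907725), Ifit1 on the plus strand (chr19:34640689-34640888), Gbp3 on the plus strand (chr3:142559844-142560043), Irgm1 on the minus strand (chr11:48871421-48871620) and Ifitm2 on the minus strand (chr7:140955962-140956161).
Isg15: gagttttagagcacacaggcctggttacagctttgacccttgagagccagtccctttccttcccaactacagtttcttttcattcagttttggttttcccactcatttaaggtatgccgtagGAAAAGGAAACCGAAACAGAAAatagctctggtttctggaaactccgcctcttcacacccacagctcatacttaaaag
Oas1a: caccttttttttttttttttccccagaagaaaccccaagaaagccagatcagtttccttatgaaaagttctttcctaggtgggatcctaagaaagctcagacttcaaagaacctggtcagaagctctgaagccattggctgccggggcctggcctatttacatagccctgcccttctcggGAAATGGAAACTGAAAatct
Ifit1: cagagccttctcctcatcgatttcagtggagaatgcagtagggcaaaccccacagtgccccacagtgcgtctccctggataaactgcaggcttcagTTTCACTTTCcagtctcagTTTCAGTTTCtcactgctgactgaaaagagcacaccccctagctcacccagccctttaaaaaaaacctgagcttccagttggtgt
Gbp3: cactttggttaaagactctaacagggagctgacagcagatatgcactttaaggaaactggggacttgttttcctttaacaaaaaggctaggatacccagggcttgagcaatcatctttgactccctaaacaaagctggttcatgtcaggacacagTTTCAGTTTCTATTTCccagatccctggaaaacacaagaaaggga
Irgm1: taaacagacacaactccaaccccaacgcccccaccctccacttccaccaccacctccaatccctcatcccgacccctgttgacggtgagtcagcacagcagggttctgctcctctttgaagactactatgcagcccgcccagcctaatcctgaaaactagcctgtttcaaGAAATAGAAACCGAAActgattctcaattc
Ifitm2: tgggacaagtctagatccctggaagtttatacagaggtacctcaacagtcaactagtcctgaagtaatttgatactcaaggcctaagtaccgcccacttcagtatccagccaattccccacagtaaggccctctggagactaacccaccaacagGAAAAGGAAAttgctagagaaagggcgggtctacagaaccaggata
Isg15 held 3 matches that overlap, starting at bases -78 to -66 from the transcript start. Oas1a and Irgm1 held 2 overlapping matches each, close to the start at -20 and -14 in Oas1a and at -30 and -24 in Irgm1. In Ifit1 and Gbp3 the matches read TTTC on the printed strand, with 2 separate matches at -104 and -85 in Ifit1 and 2 that overlap at -45 and -39 in Gbp3. Ifitm2, with a log2 ratio of 0.27 after normal mating, held 1 match at -46. Matches thus occurred both in members higher after normal mating and in members within 2-fold.

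**Figure D3:**
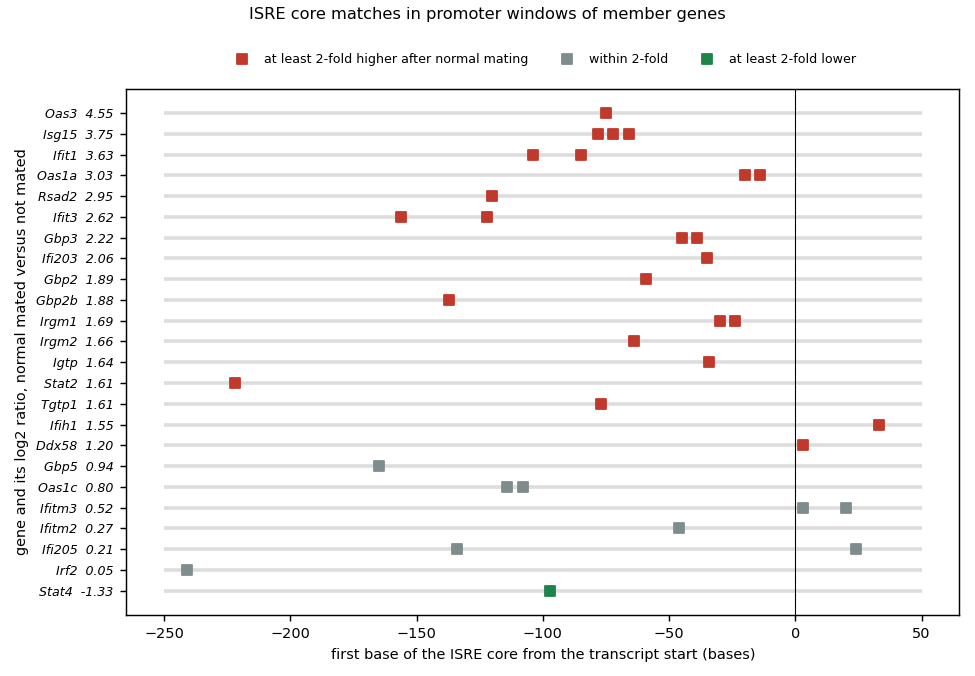
Position of each ISRE core match (squares, first base, in bases from the transcript start) in the promoter windows of 24 members with a match and a ratio, ordered by log2 ratio of normal mated to not mated, which is printed beside the symbol. Red marks members at least 2-fold higher, grey within 2-fold and green at least 2-fold lower. Matches lie before the start in most windows, and members within 2-fold such as Ifitm2 and Irf2 have them too.

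Among the targets, the oligoadenylate synthetase family included Oasl1, the member with the highest ratio after normal mating. The active enzymes of this family make an oligoadenylate that activates RNase L, which cleaves RNA, while other members of the family lack this activity. After normal mating 9 of 10 genes compared were higher and 0 lower (median log2 ratio 2.87), and after vasectomized mating 7 were higher and 0 lower (median 1.65). For this and the families below, the share of all genes higher was 9.77% after normal and 25.7% after vasectomized mating. Oasl1 was at 2.89 in normal mated, -0.28 in vasectomized mated and -2.23 in not mated females. It was 34.7-fold higher after normal mating and 3.87-fold higher after vasectomized mating than without mating. Oas3 was at 0.04 in normal mated, -4.12 in vasectomized mated and -4.51 in not mated females, or 23.4-fold higher after normal mating and within 2-fold after vasectomized mating (log2 ratio 0.39). Both probes of Oas3 showed this contrast, the dimmer with 3.43 after normal and 0.86 after vasectomized mating.

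Oasl2 was also highest on the normal mated array, at 4.25 in normal mated, 1.76 in vasectomized mated and 1.79 in not mated females, or 5.51-fold higher after normal mating and within 2-fold after vasectomized mating (log2 ratio -0.03). Between the matings Oas3 was 17.8-fold, Oasl1 8.98-fold and Oasl2 5.64-fold higher after normal mating. Oas3 was dim without mating (signal 38.4) and after vasectomized mating (signal 17.0). Its other probe gave a log2 ratio of 2.57 between the matings, against 4.16 for the brightest. Oas1a and Oas1f were higher after both matings, with ratios of 3.03 after normal and 1.90 after vasectomized mating for Oas1a and of 3.00 after normal and 2.63 after vasectomized mating for Oas1f. Oas1d, which lacks synthetase activity and is known from oocytes, was at -2.24 in normal mated and -0.98 in vasectomized mated females and not well above background in not mated females. It was therefore at least 14.0-fold higher after normal mating and at least 33.5-fold higher after vasectomized mating. Oas1c (0.80 after normal and 1.42 after vasectomized mating) was the gene within 2-fold after normal mating. Oas1b (1.09) and Oas1e (1.00) passed 2-fold narrowly and lay at 0.67 and 0.78 with normexp background correction. Oas1g was too dim to compare and Oas1h was not well above background on any array. The Oas1 genes are close copies of each other, and cross-hybridisation between them was not tested.

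The Ifit genes encode antiviral proteins, of which IFIT1 binds viral RNA caps. Ifit1 was at 2.57 in normal mated, 0.60 in vasectomized mated and -1.06 in not mated females. It was 12.4-fold higher after normal mating and 3.16-fold higher after vasectomized mating than without mating. Ifit3 was at 3.30 in normal mated, 2.78 in vasectomized mated and 0.68 in not mated females, or 6.16-fold higher after normal mating and 4.28-fold higher after vasectomized mating. The other probe of Ifit3, 3′-most by the array's coordinates, gave 2.35 for normal mating but -0.29 for vasectomized mating. It lies 23.97 kb from the brightest probe and was not matched to Ifit3 by accession. Whether it reads the same gene was not tested. Ifit2 had log2 ratios of 0.10 after normal and -0.72 after vasectomized mating, which is within 2-fold after both matings. The Mx GTPases trap viral nucleocapsids. Mx2 was at 2.05 in normal mated, 3.50 in vasectomized mated and -0.51 in not mated females, or 5.90-fold higher after normal mating and 16.2-fold higher after vasectomized mating than without mating. Mx1 was at -1.55 in normal mated, -2.87 in vasectomized mated and -4.59 in not mated females, or 8.22-fold higher after normal mating and 3.30-fold higher after vasectomized mating. Mx2 was 2.74-fold lower, and Mx1 2.49-fold higher, after normal than after vasectomized mating, although the difference for Mx1 was 0.46 on the log2 scale with normexp background correction.

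Of 4 effector and regulator genes, 3 were higher after each mating (median 2.92 after normal and 1.50 after vasectomized mating). Isg15 encodes a ubiquitin-like protein that is attached to other proteins. Its level was 3.80 in normal mated, 3.16 in vasectomized mated and 0.05 in not mated females, or 13.5-fold higher after normal mating and 8.64-fold higher after vasectomized mating. The files place its only probe on another chromosome than RefSeq places the gene, and whether the probe reads a related sequence was not tested. Usp18, the protease that removes ISG15 and also silences the type I receptor, was at 3.08 in normal mated, 1.38 in vasectomized mated and 0.19 in not mated females, or 7.42-fold higher after normal mating and 2.28-fold higher after vasectomized mating. Rsad2, which encodes the antiviral enzyme viperin, was at 2.27 in normal mated, 1.13 in vasectomized mated and -0.68 in not mated females, or 7.75-fold higher after normal mating and 3.51-fold higher after vasectomized mating. Its 3 probes gave 2.81 to 3.06 after normal mating and -0.02 to 1.81 after vasectomized mating. Isg20, an exonuclease, was within 2-fold at 4.46 in normal mated, 3.89 in vasectomized mated and 4.45 in not mated females, but was past 2-fold lower after vasectomized mating with quantile (-1.17) and cyclic loess (-1.12) normalization.

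All 3 cytosolic sensors of nucleic acid among the members were higher after each mating. Zbp1, which binds Z-form nucleic acid and can trigger cell death, was at 3.82 in normal mated, 2.24 in vasectomized mated and -1.28 in not mated females. It was 34.5-fold higher after normal mating and 11.5-fold higher after vasectomized mating than without mating. Ifih1, which encodes the RNA sensor MDA5, was at 1.33 in normal mated, 2.83 in vasectomized mated and -0.22 in not mated females, or 2.92-fold higher after normal mating and 8.23-fold higher after vasectomized mating, although its second probe, well above background on the normal mated array only, gave a bound of 0.16 for normal mating. Ddx58, which encodes the RNA sensor RIG-I, was at 0.21 in normal mated, 0.28 in vasectomized mated and -0.98 in not mated females, or 2.29-fold higher after normal mating and 2.39-fold higher after vasectomized mating. The 4 probes of Ddx58 gave 0.73 to 1.20 after normal mating and -2.64 to 1.50 after vasectomized mating, where the lowest is a bound.

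Of the other genes first found through their induction by interferon, Ifi44 and Ifi27l2a had the same direction with all their probes in both matings. Ifi27l2a, which encodes a small membrane protein, was at 5.60 in normal mated, 8.38 in vasectomized mated and 3.08 in not mated females. It was 5.74-fold higher after normal mating and 39.4-fold higher after vasectomized mating than without mating, and 6.87-fold lower after normal than after vasectomized mating. Its 3 probes, which span 13.52 kb in the files' coordinates, gave 2.52 to 2.62 after normal mating and 5.30 to 5.78 after vasectomized mating. The probe 13.52 kb from the 3′-most was not matched to Ifi27l2a by accession, and cross-hybridisation with related genes was not tested. Ifi44 was at 1.92 in normal mated, 1.20 in vasectomized mated and -2.18 in not mated females, with log2 ratios by its 2 probes of 2.46 and 4.10 after normal mating and 1.76 and 3.38 after vasectomized mating. Ifi35 was at 2.71 in normal mated, 2.83 in vasectomized mated and 1.23 in not mated females, or 2.78-fold higher after normal mating and 3.02-fold higher after vasectomized mating. Ifi30, a lysosomal thiol reductase of antigen processing, was at 1.26 in normal mated, -0.19 in vasectomized mated and 1.49 in not mated females and was 3.19-fold lower after vasectomized mating.

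The p200 genes encode DNA-binding proteins of the nucleus and cytosol, and 3 of 4 were higher after normal mating and 2 of 4 after vasectomized mating. Ifi202b was at 3.51 in normal mated, 2.32 in vasectomized mated and 0.76 in not mated females, or 6.72-fold higher after normal mating and 2.95-fold higher after vasectomized mating. Ifi204 was at 2.89 in normal mated, 3.23 in vasectomized mated and 0.54 in not mated females, or 5.09-fold higher after normal mating and 6.46-fold higher after vasectomized mating. Its probe 6.65 kb from the 3′-most probe gave log2 ratios of only 0.76 after normal and 0.33 after vasectomized mating. Ifi203 had ratios of 2.06 after normal and 0.89 after vasectomized mating, and Ifi205 of 0.21 after normal and 0.68 after vasectomized mating. These genes lie in 1 cluster of close copies, and cross-hybridisation was not tested.

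The guanylate-binding proteins (GBPs) and the immunity-related GTPases (IRGs) are large and small GTPases that attack the membranes around intracellular microbes. Of 4 GBP genes, 3 were higher after each mating, with medians of 1.88 after normal and 2.33 after vasectomized mating. Gbp3 was at 3.05 in normal mated, 3.74 in vasectomized mated and 0.82 in not mated females, or 4.67-fold higher after normal mating and 7.57-fold higher after vasectomized mating. Gbp2b was at -3.08 in normal mated, -1.58 in vasectomized mated and -4.96 in not mated females, or 3.67-fold higher after normal mating and 10.4-fold higher after vasectomized mating, although its ratio after normal mating was 0.97 with normexp background correction. Gbp2 had log2 ratios of 1.89 after normal and 0.94 after vasectomized mating, and Gbp5 of 0.94 after normal and 1.73 after vasectomized mating, so Gbp2 passed 2-fold after normal and Gbp5 after vasectomized mating, although Gbp5 reached 1.08 with quantile and 1.11 with cyclic loess normalization after normal mating.

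All 6 IRG genes were higher after normal mating, with a median log2 ratio of 1.65, and 2 of the 6 after vasectomized mating, with a median of 0.39. Ifi47 was at 1.23 in normal mated, -0.71 in vasectomized mated and -1.14 in not mated females, or 5.17-fold higher after normal mating and within 2-fold after vasectomized mating (log2 ratio 0.43). Igtp was at 3.68 in normal mated, 1.74 in vasectomized mated and 2.04 in not mated females, or 3.12-fold higher after normal mating and within 2-fold after vasectomized mating (log2 ratio -0.30). Irgm1, which regulates the other IRGs, was at 2.71 in normal mated, 1.37 in vasectomized mated and 1.02 in not mated females, with ratios of 1.69 after normal and 0.35 after vasectomized mating. In these 3 genes the normal mated array stood above the other 2. Tgtp1 was at 1.51 in normal mated, -0.24 in vasectomized mated and -0.10 in not mated females, or 3.05-fold higher after normal mating and within 2-fold after vasectomized mating (log2 ratio -0.14). Between the matings, Ifi47, Igtp, Tgtp1 and Irgm1 were higher after normal mating, by 1.94, 1.94, 1.74 and 1.34 on the log2 scale. Iigp1 was at 2.36 in normal mated, 3.57 in vasectomized mated and 1.09 in not mated females, or 2.42-fold higher after normal mating and 5.61-fold higher after vasectomized mating than without mating. Irgm2 had log2 ratios of 1.66 after normal and 2.06 after vasectomized mating. The second probe of Tgtp1, well above background on the normal mated array only, gave a bound of 0.80 for normal mating.

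The 6 Ifitm genes encode membrane proteins, some of which block the entry of viruses and are expressed in many tissues without interferon. None of the 6 genes was past 2-fold after normal mating, with ratios between -0.21 and 0.52 and a median of 0.16. Ifitm3 was at 6.18 in normal mated, 5.25 in vasectomized mated and 5.66 in not mated females. Ifitm1 was at 5.55 in normal mated, 5.36 in vasectomized mated and 5.50 in not mated females, and Ifitm2 at 3.82 in normal mated, 2.94 in vasectomized mated and 3.55 in not mated females. After vasectomized mating the ratios lay between -0.61 and 0.71, but Ifitm2, Ifitm3 and Ifitm7 passed 2-fold lower with quantile (-1.06, -1.26 and -1.23) and cyclic loess normalization (-1.03, -1.21 and -1.20), and Ifitm5 passed 2-fold higher with normexp background correction (1.07). The 4 genes of another kind that the name pattern took were within 2-fold after normal mating (-0.40 to 0.07), and Irf2bp1 was 6.32-fold lower after vasectomized mating.

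**Figure D4:**
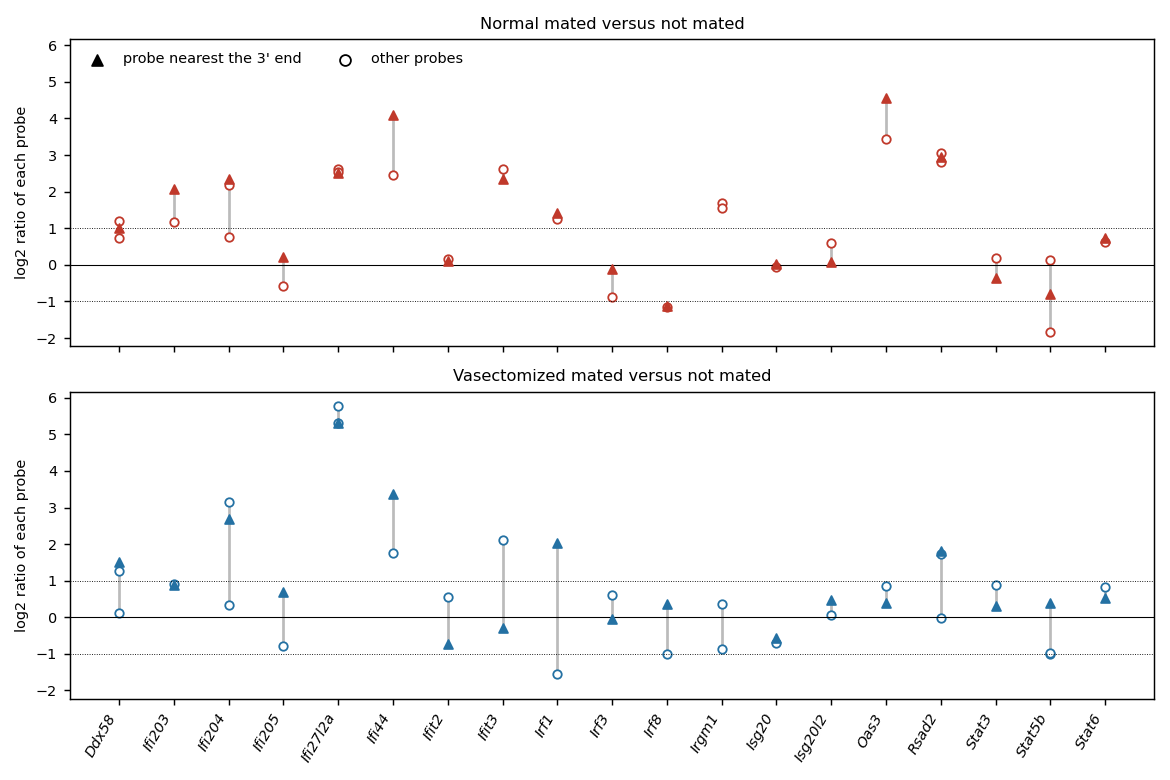
Log2 ratio to the not mated array (vertical axis) of each probe of members with at least 2 probes well above background on all 3 arrays, for normal mated (top, red) and vasectomized mated females (bottom, blue). Triangles mark the probe nearest the 3′ end, circles the others, and bars join the probes of a gene. The bars are longer in the lower panel for genes such as Irf1 and Rsad2, while those of Ifi27l2a are short in both.

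The plot of single probes shows how far each value rests on the probe. Only probes well above background on both arrays compared were counted here. After normal mating all such probes of 9 of 23 members were at least 2-fold higher, and after vasectomized mating those of 2 of 23, Ifi27l2a and Ifi44. Over all genes with several such probes these shares were 4.39% of 6235 after normal mating and 7.79% of 5762 after vasectomized mating, and the 2 of 23 members lie near the second of them. The ratio of the 3′-most probe exceeded that of the farthest probe in 15 of 21 members after normal mating (median difference 0.14 on the log2 scale) and in 12 of 21 after vasectomized mating (0.15). Over all 5586 genes with such probes the shares were 51.3% after normal mating (0.01) and 60.3% after vasectomized mating (0.25). The labelling was primed with oligo-dT, which copies RNA from its 3′ end. The part of RNA integrity in the probe differences was not tested.

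Interferon-induced genes that the name pattern did not take were examined as a second list. After normal mating 27 of 40 were higher and 1 lower (median 1.25), and after vasectomized mating 17 of 37 were higher and 2 lower (median 0.99). Over all genes, 9.77% were higher and 13.2% lower after normal mating, and 25.7% higher and 16.6% lower after vasectomized mating. Rtp4, a chaperone of opioid receptors, was 6.30-fold higher after normal mating, Trim30a 6.22-fold and Herc6, the ligase that attaches ISG15 in the mouse, 6.21-fold. Cxcl10, a chemokine for T cells, was at -0.03 in normal mated, 0.98 in vasectomized mated and -2.14 in not mated females. Cxcl9, a chemokine known for its induction by interferon gamma, was at -5.40 in normal mated, -2.89 in vasectomized mated and -5.30 in not mated females. It was thus 5.29-fold higher after vasectomized mating and level after normal mating. Cxcl9 was dim on the normal mated and not mated arrays, and no value of it with normexp background correction is given here. Tap1, a peptide transporter of antigen presentation, was 2.36-fold higher after normal mating and 3.20-fold lower after vasectomized mating. Ido1, a tryptophan-degrading enzyme, was the lower gene after normal mating, by at least 3.68-fold.

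Genes that carry a current name of the same families but an older name in the files were counted apart. Of 12 compared, 4 were higher and 0 lower after normal mating (median 0.66), and 5 were higher and 2 lower after vasectomized mating (median 0.44). The shares over all genes were 9.77% higher and 13.2% lower after normal mating, and 25.7% higher and 16.6% lower after vasectomized mating. Irf9, the DNA-binding partner of STAT2, was at 2.96 in normal mated, 2.49 in vasectomized mated and 1.96 in not mated females, with log2 ratios of 1.00 after normal and 0.53 after vasectomized mating. Dhx58, which encodes the RIG-I-like protein LGP2, was at 2.00 in normal mated, 0.67 in vasectomized mated and -0.78 in not mated females, with ratios of 2.78 after normal and 1.45 after vasectomized mating. The gene now named Ifi27, which the files give under another name, was at 5.33 in normal mated, 6.51 in vasectomized mated and 4.24 in not mated females.

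Markers of other cells moved between the same arrays. Over all genes, 9.77% were higher and 13.2% lower after normal mating, and 25.7% higher and 16.6% lower after vasectomized mating. All 8 neutrophil markers compared were higher after normal mating (median 3.22) and 7 of 8 after vasectomized mating (median 3.15), while Ngp was not well above background on any array. Of 7 macrophage markers, 2 were higher and 1 lower after normal mating (median -0.02), and 4 were higher after vasectomized mating (median 1.58). Of 5 markers of plasmacytoid dendritic cells, the defining Siglech was not well above background on any array, while Bst2, Ccr9, Klk1 and Tcf4 were on all 3. Of these 4, 3 were lower after normal mating (median -1.42) and 2 after vasectomized mating (median -1.0). Of 3 compared B cell markers, 1 was higher after normal mating (median 0.38) and 2 after vasectomized mating (median 1.31). All 4 endothelial markers were lower after normal mating (median -1.93), and 3 were lower and 1 higher after vasectomized mating (median -1.64). Of 5 epithelial markers, 3 were higher after normal mating (median 1.01), and 1 was higher and 1 lower after vasectomized mating (median -0.38). Of 4 stromal markers, 2 were lower after normal mating (median -0.71) and 1 was higher after vasectomized mating (median 0.29). Of 4 smooth muscle markers, 2 were lower after normal mating (median -1.02), and 1 was higher and 2 lower after vasectomized mating (median -0.78). The part of these cells in the interferon-induced levels was not tested.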

How the data were processed

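Total RNA of 1 pool of 10 females per group was hybridised to single-colour Cy3 arrays, per the labels. The deposited intensity values are processed signals of Agilent Feature Extraction, from which background was subtracted and spatial gradients were removed array by array, per the file headers. Nothing in the headers records a scaling across arrays. The headers give version 10.5.1.1 and the submitters' processing notes 9.5.3. All 3 arrays share a slide and a scan, and no spot was saturated.

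Computed here: log2 of the processed signal minus the array's 75th percentile over non-control probes, without outlier-flagged spots, averaged over the spots of a probe. A gene, by its name in the files, takes its brightest probe, and a probe that is dim on all 3 arrays only if it has no other. If only 1 of 2 arrays was well above background, the dim value was set to the lowest signal well above background on its array and the ratio is a bound. Genes dim on both arrays were not compared. Of the 67 members, 61 were matched to RefSeq GRCm38.p6 by accession and 6 by symbol. R 4.3.3 with limma 3.58.1, Python 3.11.15 and pandas 2.3.3 were used. Alternatives were normexp background correction (offset 50), quantile and cyclic loess normalization, other filters and other probe rules. The array files name an old build for their probes (mm7), and from it come only distances between probes of a gene. The members, lists and alternatives were chosen with earlier results of these data known. All members may be named, but 2 are not reported singly or plotted here. The counting step was tested on simulated data. No p-value, SD between animals or leave-one-out value exists with 1 array per group.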

Additional observations from a re-analysis of the deposited data

How the results depend on the processing

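No paired analysis was possible because each group has 1 array, and no array could be left out. For normal mated against not mated, the members' median log2 ratio of 1.45 became 1.23 with normexp background correction, 1.28 with quantile and 1.35 with cyclic loess normalization and 1.24 with the median over the probes of a gene. With alternatives chosen after seeing the data it was 1.34 for the probe nearest the 3′ end, 1.23 for members by current symbol and 1.58 without the 4 genes of another kind. For vasectomized mated against not mated, the 3 lower members became 7 with quantile and 7 with cyclic loess normalization and 5 by current symbol. The median of 1.07 became 1.00 with quantile and 0.98 with cyclic loess normalization, 0.94 without genes that are dim on 1 of the arrays, 0.94 with no filter, 0.81 with the median over probes, 0.94 with the probe nearest the 3′ end, 0.92 by current symbol and 1.24 without the 4 genes. For normal against vasectomized mated, the 11 lower members became 7 with quantile normalization, and the median of 0.19 became 0.07 with normexp, 0.45 with quantile and 0.28 with cyclic loess normalization, 0.28 by current symbol and 0.28 without the 4 genes. The counts of higher members stayed within 1.5 times the main count in all 3 comparisons under every alternative run. Of the single members called, 6, 3 and 10 had a value under 2-fold or turned in at least 1 setting, in normal mated against not mated, vasectomized mated against not mated and normal against vasectomized mated. For Tgtp1 with the probe nearest the 3′ end the values were lower bounds, 0.80 against not mated and 0.42 against vasectomized mated. For Ifih1 the median over probes in normal mated against not mated, 0.86, draws on a lower bound. A lower bound under 1 does not show a ratio under 2-fold. The sign turned for Oas1b in normal against vasectomized mated with normexp (-0.18), and the cause was not tested. It also turned for Ifit3 in vasectomized mated against not mated with the probe nearest the 3′ end (-0.29). That probe lies 23.97 kb from the brightest, and whether it reads the same gene was not tested. In normal mated against not mated, Oas1b, Oas1e, Gbp2b and Stat4 fell under 2-fold with normexp.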

Other observations

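Members under older names included further GBP genes, which were not all higher after mating. Gbp6 had log2 ratios of 1.50 after normal and 1.55 after vasectomized mating. The ratios after normal mating were 0.15 for Gbp4, 0.52 for Gbp7, -0.39 for Gbp8 and 0.80 for Gbp9. After vasectomized mating they were -0.94 for Gbp4, -0.78 for Gbp7, -1.07 for Gbp8 and 0.34 for Gbp9. Ifi209, of the p200 cluster, had 0.40 after normal and 2.63 after vasectomized mating. Of the sensors of nucleic acid in endosomes, Tlr7, for single-stranded RNA, was at a log2 level of -4.24 in normal mated, -1.42 in vasectomized mated and -3.68 in not mated females, 7.07-fold lower after normal than after vasectomized mating. Tlr3, for double-stranded RNA, was at -2.24 in normal mated, -3.06 in vasectomized mated and -3.32 in not mated females, and Tlr9, for DNA, had a log2 ratio of -0.52 between normal and vasectomized mating, so both lay within 2-fold between the matings. Tlr8 was not well above background on any array.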
